A study of Homo sapiens with 32 samples.

Results

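Of 18170 promoter windows of protein-coding genes in a human cell line, 898 (4.94%) held peak summits of exactly 1 of 4 transcription factors. A window covered 500 bp on either side of the 5′ end of a GENCODE 44 protein-coding gene on chromosomes 1 to 22 and X, and windows that overlapped were merged, so that 19970 genes gave 18170 windows. The 898 were selected on the presence of summits: at least 1 summit of 1 list, and no summit of the other 3. SP1 was the lone factor in 464 of them (51.7%), YY1 in 281 (31.3%), NRF1 in 123 (13.7%) and ZNF143 in 30 (3.34%). The remaining windows comprised 7203 with none of the 4 factors, 1714 with 2, 3599 with 3 and 4756 with all 4. Over all windows, ZNF143 had a summit in 29.3%, SP1 in 57%, NRF1 in 46% and YY1 in 55.7%, so that most windows with any of these factors held several of them.

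The series was a chromatin immunoprecipitation and sequencing (ChIP-seq) experiment in HEK293T, a line derived from human embryonic kidney, in a single clone (ZD29) whose ZNF143 carried the dTAG degron and an HA tag. Cells were left untreated or received 50 nM dTAGV-1, a compound that directs the tagged protein to degradation, for 30 min. The antibodies to SP1, NRF1 and YY1 were each used on 4 untreated and 4 treated samples. For ZNF143, precipitated through its HA tag, 2 samples were untreated and 2 treated, and so it was for the mock precipitation. The data used here were 1 list of summits per antibody, with no value per sample or treatment, so treated and untreated cells could not be compared, and the read depth behind each list is unknown. On the chromosomes used, the lists held 16165 ZNF143, 126181 SP1, 39180 NRF1 and 106578 YY1 summits. The lists differ in length, so the classes were also counted with lists of equal length. With each list limited to its 16165 highest-scoring summits, 1880 windows had a single factor. ZNF143 was alone in 258, SP1 in 247, NRF1 in 1057 and YY1 in 318. The sizes of the ZNF143, SP1 and NRF1 classes thus moved, and that of YY1 changed little.

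All 4 proteins bind DNA directly and are known for promoters that are active in most cell types. ZNF143 is a zinc finger protein whose long site can carry ACTACA beside its core, SP1 a zinc finger protein that binds GC boxes, NRF1 (nuclear respiratory factor 1) a dimer that binds a GC-rich palindrome, and YY1 a zinc finger protein whose site has an ATGGC core, often just inside the gene. Many such promoters lie in CpG islands, stretches in which the dinucleotide CG has not been lost to methylation and decay. A summit is the base at which a peak of ChIP-seq reads is highest.

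The bases at the summits of some high-scoring ZNF143-only windows are shown because they let the consensus, in capitals, be compared with neighbouring letters. All sequences are from hg38, 5′ to 3′, and lie at the highest summit of the window or around the consensus nearest to it. DQX1 is chr2:74526377-74526436 on the minus strand, and CEND1 is chr11:790101-790130, RAMACL chr6:166586902-166586961 and DNAJB13 chr11:73950944-73951003, all on the plus strand.
DQX1: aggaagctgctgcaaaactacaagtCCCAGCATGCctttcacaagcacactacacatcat
CEND1: tcgggagtttCCCACAATGCactgctcccg
RAMACL: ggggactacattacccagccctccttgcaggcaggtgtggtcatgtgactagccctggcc
DNAJB13: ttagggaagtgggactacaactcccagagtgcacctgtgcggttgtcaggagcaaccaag
The letters ACTACA stand in 3 of these 4 sequences, those of DQX1, RAMACL and DNAJB13. RAMACL and DNAJB13 hold no exact match of the consensus in the whole window.

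For SP1 the consensus searched was GGGGCGGGG. The sequences are RASA4 at chr7:102616938-102616997 and RAD51AP2 at chr2:17518481-17518540, both read on the plus strand. They show windows with and without an exact match of the consensus within 50 bp of a strong summit. The match of RASA4 lies 28 bp from the summit, and the RAD51AP2 bases match on the other strand with 1 mismatch.
RASA4: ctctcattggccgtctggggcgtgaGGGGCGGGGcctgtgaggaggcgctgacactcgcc
RAD51AP2: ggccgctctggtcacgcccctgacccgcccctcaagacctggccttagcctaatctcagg

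For NRF1 the consensus was GCGCNTGCG. MAZ is chr16:29805665-29805724, ANAPC1 chr2:111884216-111884275, ZMYND10 chr3:50345727-50345756 and MCCC1 chr3:183116176-183116235, read on the plus strand, and CTNNA3 is chr10:67763629-67763658 on the minus strand. They are shown because the consensus of MAZ, CTNNA3 and ZMYND10 covers the summit itself.
MAZ: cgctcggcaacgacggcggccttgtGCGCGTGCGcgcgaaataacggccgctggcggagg
ANAPC1: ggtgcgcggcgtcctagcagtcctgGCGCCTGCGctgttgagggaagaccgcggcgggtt
CTNNA3: ctgatcccagaGCGCATGCGcagcccttgt
ZMYND10: cgggttagccGCGCCTGCGcagtgcggcct
MCCC1: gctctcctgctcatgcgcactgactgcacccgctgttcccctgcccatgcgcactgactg

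For YY1 the consensus was AANATGGCG. PCDHB7 is chr5:141172499-141172558 and TUBGCP5 chr15:23039528-23039557, both on the minus strand, and they carry the consensus 20 and 21 bp from the summit. IREB2 at chr15:78437841-78437900 and HSPA8 at chr11:123062744-123062773, on the plus strand, are the highest-scoring YY1-only windows and have no consensus within 50 bp of their summits.
PCDHB7: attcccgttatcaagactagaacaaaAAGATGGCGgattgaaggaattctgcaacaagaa
TUBGCP5: caggagcgcggAACATGGCGcggcacgggc
IREB2: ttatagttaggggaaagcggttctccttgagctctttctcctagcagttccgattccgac
HSPA8: ccccaccttcgtgttccagacgggcctcta

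Single-factor windows were intermediate in CpG content, and the classes differed among themselves. A window was called CpG-rich where at least 50% of its bases were G or C and its observed over expected number of CG dinucleotides was at least 0.6. By this rule 403 of 898 single-factor windows were CpG-rich (44.9%, Wilson 95% interval 41.7 to 48.1), against 55.7% of all windows. The share was 15.0% in windows without any of the 4 factors (1078 of 7203), 67.7% with 2 factors, 86.7% with 3 and 91.7% with all 4 (4362 of 4756). Single-factor windows were CpG-rich more often than windows without a factor, with an odds ratio of 4.63 (95% interval 4.00 to 5.36, adjusted exact p = 2.67e-86). They were CpG-rich less often than windows with all 4 factors (odds ratio 0.0735, 0.0622 to 0.0869, adjusted exact p = 2.65e-211). These and the following p-values are from two-sided Fisher's exact tests on windows with Benjamini-Hochberg adjustment over the family, here 6 tests. Windows are positions in 1 genome and not biological replicates, so a p-value describes these lists only, and an interval covers counting error only.

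SP1-only windows were CpG-rich less often than the other single-factor windows. Of them 172 of 464 were CpG-rich (37.1%), against 231 of the other 434 single-factor windows (53.2%), an odds ratio of 0.518 (0.397 to 0.676, adjusted exact p = 2.59e-06). NRF1-only windows were CpG-rich in 69 of 123 cases (56.1%) against 43.1% of the others (odds ratio 1.69, 1.15 to 2.48, adjusted exact p = 0.00996). YY1-only windows were CpG-rich in 148 of 281 cases (52.7%) against 41.3% (odds ratio 1.58, 1.19 to 2.10, adjusted exact p = 0.00276). That direction turned with equal list lengths, where the odds ratio for YY1 was 0.698 (adjusted exact p = 0.0140). ZNF143-only windows were CpG-rich in 14 of 30 cases (46.7%) against 44.8%, and with an odds ratio of 1.08 (0.519 to 2.23, adjusted exact p = 0.854) the interval allowed a difference in either direction. Of the 24 windows whose 31 bp at the summit were found once in the genome, 8 were CpG-rich (33.3%). For ZNF143 the odds ratio was under 1 in 9 of 11 alternatives and passed in that direction in 3. It was 0.522 with equal list lengths (adjusted exact p = 3.82e-05), 0.0606 with 1000 bp either side (adjusted exact p = 0.00207) and 0.0446 with a CpG limit of 0.75 (adjusted exact p = 0.000199). With 1000 bp and with the limit of 0.75 no ZNF143-only window was CpG-rich, so 0.5 was added to each cell for the odds ratio. These settings counted repeated sequences as separate windows. With repeated summit sequences left out the odds ratio was 0.612 (adjusted exact p = 0.302).

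The spread within each class was wide. The median observed over expected CpG was 0.549 in ZNF143-only, 0.487 in SP1-only, 0.678 in NRF1-only and 0.665 in YY1-only windows, between 0.271 in windows without a factor and 0.795 in windows with all 4. In SP1-only windows the quartiles were 0.278 and 0.711, and the single values ran from 0.0608 to 1.05. The GC content varied less between the classes than the CpG ratio did, with medians from 56.5% in SP1-only to 58.5% in ZNF143-only windows, against 51.1% without a factor and 61.8% with all 4.

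**Figure D1:**
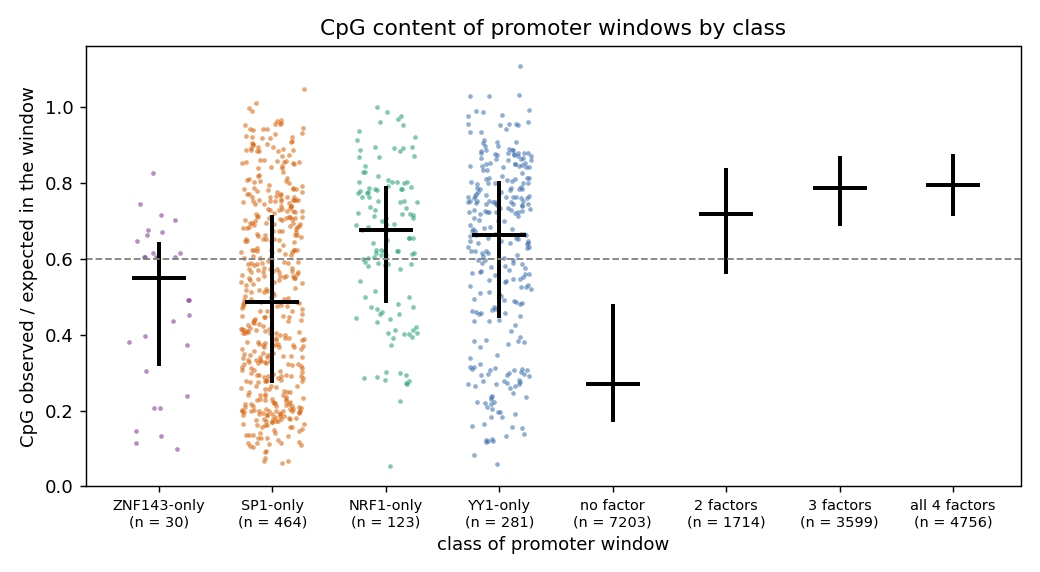
Observed over expected CpG of promoter windows (y axis) by class (x axis). Coloured points are the single-factor windows, black bars the median and quartiles of each class, and the dashed line the limit of 0.6 for a CpG-rich window. The 4 single-factor medians lie from 0.487 to 0.678, above the median of 0.271 without a factor and below the 0.795 with all 4 factors.

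The consensus of the lone factor was more frequent in its own class than in the other single-factor windows for all 4 factors, counted with no mismatch on both strands of the window. The difference was large for NRF1 and ZNF143. NRF1-only windows held the NRF1 consensus in 34 of 123 cases (27.6%), against 22 of the other 775 (2.84%) and 13.6% of all windows, an odds ratio of 13.1 (7.32 to 23.3, adjusted exact p = 4.41e-17 over 4 tests). ZNF143-only windows held the ZNF143 consensus in 13 of 30 cases (43.3%), against 43 of 868 (4.95%) and 6.76% of all windows, an odds ratio of 14.7 (6.70 to 32.2, adjusted exact p = 5.65e-09). Among those 13 were 6 near-identical windows of the TP53TG3 genes, and with repeated sequences left out the count was 7 of 24 (odds ratio 8.59, 3.35 to 22.02, adjusted exact p = 0.000253).

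For YY1 and SP1 the consensus described few of the windows or separated them little. YY1-only windows held the YY1 consensus in 13 of 281 cases (4.63%), against 5 of 617 (0.810%) and 7.25% of all windows, with an odds ratio of 5.94 (2.10 to 16.8, adjusted exact p = 0.0005). The YY1-only share was thus above that of the other classes and under that of all windows, and windows with all 4 factors had 15.9%. SP1-only windows held the SP1 consensus in 159 of 464 cases (34.3%), against 106 of 434 (24.4%) and 30.9% of all windows (odds ratio 1.61, 1.21 to 2.16, adjusted exact p = 0.00128). That call ended when repeated summit sequences were left out (odds ratio 1.35, adjusted exact p = 0.0543) and when 1 mismatch was allowed (odds ratio 0.961, adjusted exact p = 0.824). NRF1-only windows held the SP1 consensus nearly as often as SP1-only ones, in 37 of 123 cases (30.1%), and this pair was not tested on its own.

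**Figure D2:**
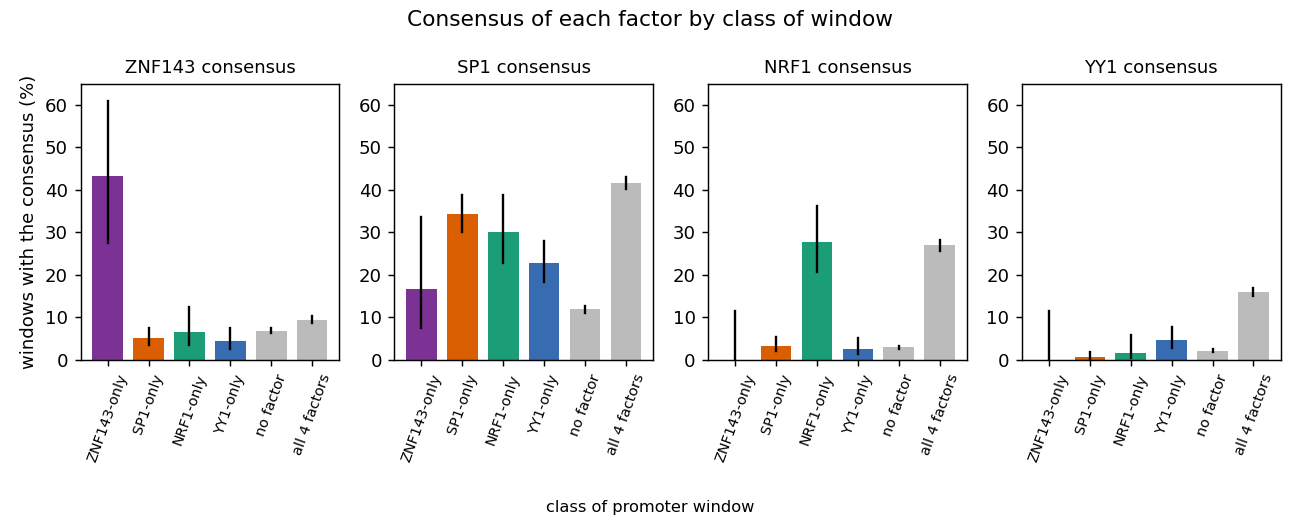
Share of windows (y axis, %) that hold the consensus of ZNF143, SP1, NRF1 or YY1 (panels) in each single-factor class, in windows without a factor and in windows with all 4. Lines are Wilson 95% intervals. The ZNF143 and NRF1 panels each have 1 tall single-factor bar, that of the factor itself, at 43.3% and 27.6%, while the SP1 consensus is spread over all classes and the YY1 consensus stays under 5% in each single-factor class.

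Close to the summit the NRF1 consensus was the most frequent and the YY1 consensus the least. The own consensus lay within 50 bp of the highest summit in 26 of 123 NRF1-only windows (21.1%), 5 of 30 ZNF143-only windows (16.7%), 44 of 464 SP1-only windows (9.48%) and 10 of 281 YY1-only windows (3.56%). At summits of the same factor in windows shared with other factors, the shares were 21.6% for NRF1, 4.80% for ZNF143, 12.6% for SP1 and 6.27% for YY1. Within 50 bp of the 5′ ends of windows of 1 gene they were 4.41%, 0.958%, 8.93% and 2.13% in the same order. The SP1-only share was thus close to that at 5′ ends in general, a comparison that was not tested. ACTACA, seen in some of the ZNF143-only sequences above with or without the consensus, was searched only after those had been read. It lay within 50 bp of 10 of 30 ZNF143-only summits (33.3%, 19.2 to 51.2). Of ZNF143 summits that shared the window with other factors 11.7% had it, and 2.70% of the 5′ ends of windows of 1 gene. Without repeated sequences it was 7 of 24 (29.2%), and the share was 1.51% at SP1-only, 4.07% at NRF1-only and 2.85% at YY1-only summits.

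The sites of ETS factors and ZBTB33 and the cyclic AMP response element were rarer in single-factor windows than in windows with all 4 factors. TATAAA just upstream of the 5′ end was more frequent in single-factor windows. In windows of 1 gene, so that lengths were alike, the ETS site CCGGAAGT was found in 1.50% of single-factor windows, 1.26% of windows without a factor and 15.1% of windows with all 4. The site TCTCGCGAG, bound by ZBTB33, was found in 0.230%, 0.156% and 2.31%, and the cyclic AMP response element TGACGTCA in 2.07%, 1.15% and 5.42%. Windows with 2 factors were closer to the single-factor ones, with 3.33% for the ETS site, 0.432% for that of ZBTB33 and 2.53% for the cyclic AMP response element. Of the factors' own sites, that of NRF1 followed the same order (5.99%, 2.84% and 25.7%), as did that of SP1 (28.8%, 11.6% and 41.6%). The NRF1 site was in 26.7% of NRF1-only windows, a class chosen by NRF1 summits. In SP1-only and YY1-only windows it was in 2.92% and 2.55%, near the share without a factor. The SP1 site was in 33.9% of SP1-only, 28.3% of NRF1-only, 21.9% of YY1-only and 17.2% of ZNF143-only windows. The YY1 site was found in 1.84% of single-factor windows, 2.10% without a factor and 15.2% with all 4, and the ZNF143 site in 6.11%, 6.71% and 9.15%. Single-factor windows were thus close to empty windows in ETS, ZBTB33, YY1 and ZNF143 sites, though not in SP1 sites; these shares were not tested. TATAAA stood 40 to 15 bp upstream of a 5′ end in 2.56% of single-factor windows, 6.09% of windows without a factor and 1.01% with all 4. CCAAT, the site of NF-Y, lay within 50 bp of the summit in 17.2% of SP1-only windows, 16.7% of ZNF143-only, 5.69% of NRF1-only and 4.27% of YY1-only windows. At SP1 summits shared with other factors the share was 21.8%, and it was 12.0% at 5′ ends.

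Where the lone summit lay relative to the 5′ end differed by factor. SP1 summits were centred upstream, with a median offset of -30 bp (quartiles -128 and 167). YY1 summits were centred inside the gene, at 131 bp (quartiles -78.0 and 332), and the medians of NRF1 and ZNF143 were 33 and 51 bp. The highest summit lay within 100 bp of a 5′ end in 181 of 464 SP1-only windows (39.0%) against 28.3% of the others (odds ratio 1.62, 1.22 to 2.14, adjusted exact p = 0.0018). In YY1-only windows it did so in 68 of 281 cases (24.2%) against 38.2% (odds ratio 0.515, 0.375 to 0.708, adjusted exact p = 0.000152). NRF1-only windows had 40 of 123 (32.5%) against 34.1% (odds ratio 0.933, 0.622 to 1.40, adjusted exact p = 0.760). ZNF143-only windows had 15 of 30 (50%) against 33.3%, which did not pass (odds ratio 2.00, 0.966 to 4.16, adjusted exact p = 0.101). With repeated summit sequences left out the ZNF143 odds ratio was 1.43 (adjusted exact p = 0.517). Repeated sequences were kept in the alternatives that follow. The ZNF143 comparison passed with scores of at least 5 (2.76, adjusted exact p = 0.00852), with the higher-scoring 50% of every list (2.22, adjusted exact p = 0.0315) and at canonical 5′ ends (4.25, adjusted exact p = 0.00191). That of NRF1 passed in the other direction with equal list lengths (1.29, adjusted exact p = 0.0137). Over all windows with the factor, shared or not, the shares within 100 bp were 55.5% for SP1, 37.3% for YY1, 49.3% for NRF1 and 50.7% for ZNF143. Lone SP1, YY1 and NRF1 summits were thus near the 5′ end less often than the highest summits of all promoter windows with those factors, a difference that was not tested. In windows with no summit of another list within 2000 bp outside, neither the SP1 call (odds ratio 1.1599, adjusted exact p = 0.486) nor the YY1 call (0.599, adjusted exact p = 0.0748) was kept. Both also ended with 250 bp either side (1.27, adjusted exact p = 0.0550, and 0.742, adjusted exact p = 0.0536). The SP1 call ended too with equal list lengths (1.158, adjusted exact p = 0.406) and with a limit of 50 bp (1.29, adjusted exact p = 0.220).

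**Figure D3:**
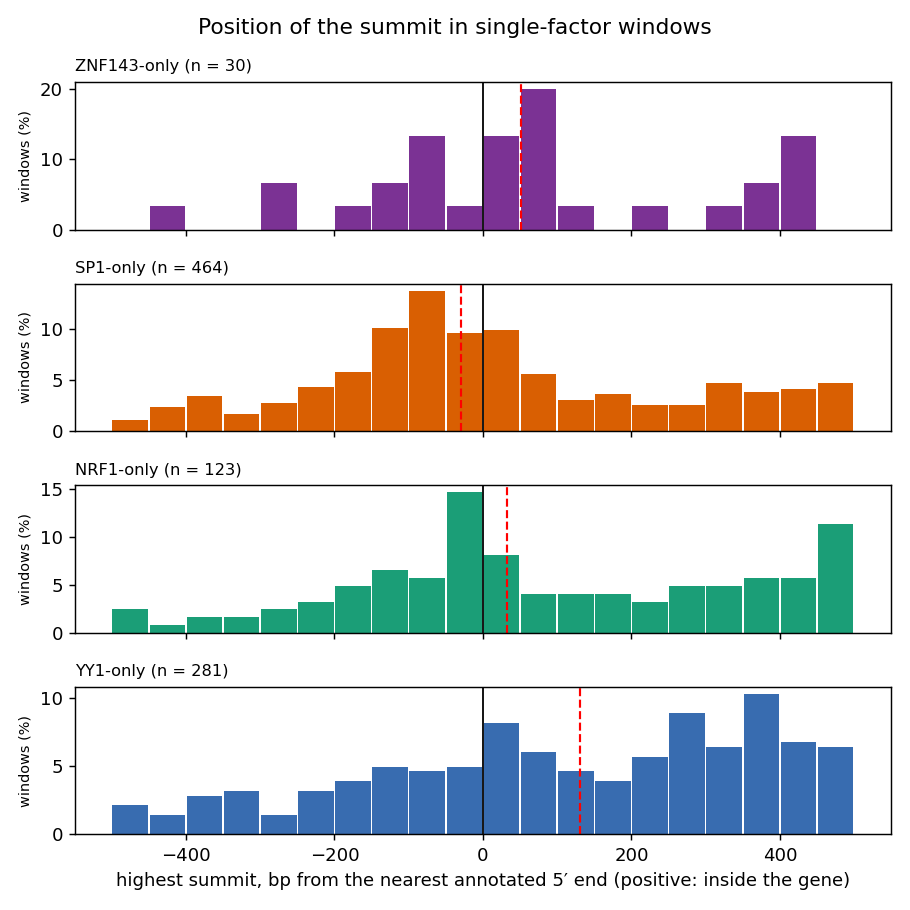
Position of the highest summit of each single-factor window in bp from the nearest annotated 5′ end (x axis, positive inside the gene), as a share of the windows of the class (y axis, %) in bins of 50 bp. The black line marks the 5′ end and the dashed red line the median. SP1 summits gather just upstream, while YY1 summits are more frequent inside the gene than upstream.

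By annotation, 175 of the 464 lone SP1 summits were intergenic, 123 intronic, 110 in an untranslated region, 35 in a noncoding exon and 21 in a coding exon. Of the 281 YY1 summits 52 were intergenic, 86 lay in an untranslated region, 73 in an intron, 39 in a coding exon and 31 in a noncoding exon. NRF1 had 40 intergenic, 33 intronic and 32 untranslated-region summits of 123. Of the 30 ZNF143 summits 8 were in coding exons, 6 of which were the TP53TG3 copies. A noncoding RNA gene that started in the window on the other strand was annotated in 6.68% of SP1-only, 8.19% of YY1-only, 4.07% of NRF1-only and 3.33% of ZNF143-only windows, against 10.1% of all windows. None of the 4 comparisons between classes passed, with adjusted p-values of 0.498 for YY1 and NRF1, 0.953 for ZNF143 and 1 for SP1. Their intervals were wide, for ZNF143 from 0.0633 to 3.53 and for YY1 from 0.814 to 2.40.

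The scores given next took part in the choice of the windows, since only summits above a score limit are listed, and are described without a test. The score is the −log10 significance that the authors deposited with each summit, and it is comparable only within a list. The lone summits of SP1 and YY1 scored under the general level of promoter windows with those factors. The median score of the highest summit was 12.1 in SP1-only windows against 187 in all windows with SP1, and 10.3 in YY1-only windows against 130 in all windows with YY1. For NRF1 it was 18.8 against 46.5. Only for ZNF143 was the median of the class, 31.4, above that of all windows with the factor, 21.7. Quartiles were 6.12 and 30.4 for SP1, 5.04 and 25.5 for YY1, 5.08 and 209 for NRF1 and 21.9 and 245 for ZNF143. Of the lone summits, 76.7% of ZNF143, 67.5% of NRF1, 45.9% of SP1 and 37.7% of YY1 reached the median of their whole list.

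**Figure D4:**
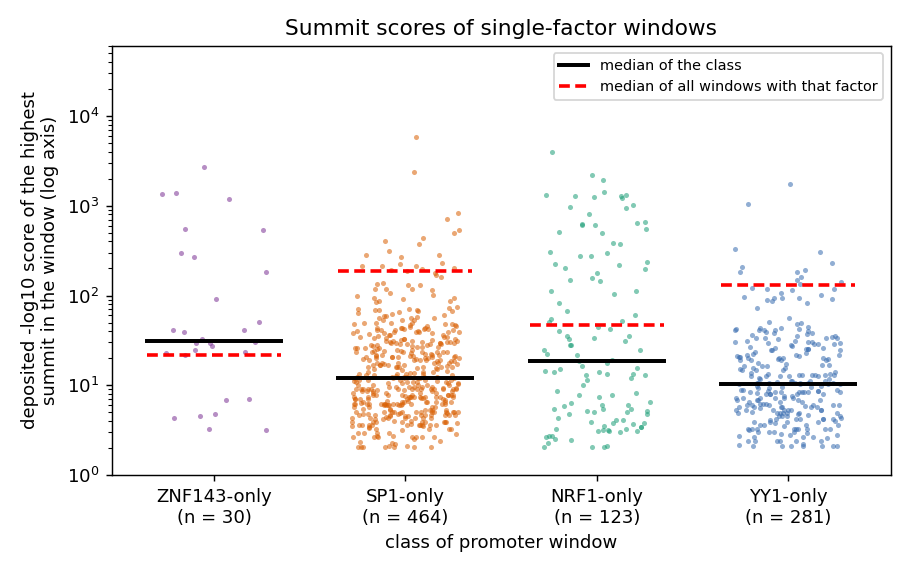
Deposited −log10 score of the highest summit of each single-factor window (y axis, log axis) by class (x axis). Black lines are class medians and dashed red lines the medians of all windows with that factor. The SP1 and YY1 medians, 12.1 and 10.3, lie far under 187 and 130, and the ZNF143 median, 31.4, lies above 21.7.

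The scores of the 30 ZNF143-only windows ran from 3.18 to 2694. DRC7, a subunit of the dynein regulatory complex of cilia and flagella, had the highest score at 2694, with its summit 23 bp upstream of the 5′ end and the nearest summit of another list 5350 bp outside the window. RAMACL followed with 1386. DNAJB13, an axonemal chaperone of sperm flagella, had 1344 and PLPP7, of the phospholipid phosphatase family, 1176. The nearest other list was 18736 bp from the RAMACL window, 13020 bp from that of DNAJB13 and 5815 bp from that of PLPP7, and all 4 windows were poor in CpG, with ratios from 0.146 to 0.373. MSRB3, a methionine sulfoxide reductase, had 549, but an SP1 summit with a score of 24.97 lay 20 bp outside its window.

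DQX1, of the DEAQ box family, scored 542. CEND1, which promotes cell cycle exit of neurons, scored 298 with the summit 1 bp from the 5′ end. ZNF229, a zinc finger gene, scored 267, and SALL4, a transcription factor of embryonic stem cells, 181 with an SP1 summit 333 bp outside. MALSU1, an assembly factor of the mitochondrial ribosome, scored 91.8 with its summit 411 bp inside the gene, and an SP1 summit lay 40 bp outside its window. The canonical 5′ end of MALSU1 lay 600 bp downstream of the outermost one, and a window around it held all 4 factors.

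All 6 windows of the TP53TG3 genes on chromosome 16, near-identical copies named as targets of p53, were ZNF143-only. Their scores ran from 21.7 to 30.4, with summits 81 to 114 bp inside the gene. The 31 bp around each summit occurred 8 times in the assembly, so reads there cannot be assigned to 1 copy and the 6 windows are not 6 separate observations. None of them lay in a region where the peak numbers of the NRF1 or YY1 list skip.

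Among the SP1-only windows with high scores, RAD51AP2 scored 2352, and no other list had a summit within 19746 bp of its window. CAMTA1, a calmodulin-binding transcription activator, scored 830, with a YY1 summit 120 bp outside. RASA4B (719) and RASA4 (497), Ras GTPase-activating proteins, are copies of each other, and the 31 bp at both summits occurred 2 times in the assembly. CEP70, a centrosomal protein, scored 531 with its summit in the untranslated region.

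LINC02210-CRHR1, a readthrough gene that reaches the corticotropin-releasing hormone receptor, scored 435, and its sequence occurred 3 times. MPC2, a subunit of the mitochondrial pyruvate carrier, scored 407, but a YY1 summit lay 14 bp outside its window. Over the class, 407 of 464 SP1-only summits had a 31-bp sequence found once in the assembly. In the class 15 windows lay in regions skipped by the peak numbers of the NRF1 or YY1 list, where summits of those lists can be missing. In ZNF143-only, NRF1-only and YY1-only windows the counts in such regions were 0, 0 and 1.

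Of the 8 highest-scoring NRF1-only windows 5 had the consensus within 50 bp of the summit. MAZ, a zinc finger transcription factor, scored 3990, with its summit 411 bp upstream and an SP1 summit 46 bp outside the window. MCCC1, a subunit of methylcrotonyl-CoA carboxylase, scored 2182; its summit sequence occurred 2 times in the assembly, and its canonical 5′ end lay 16579 bp away with SP1 and YY1. ANAPC1, a subunit of the anaphase-promoting complex, scored 1910 with its summit 450 bp inside the gene and a ZNF143 summit 30 bp outside the window. CTNNA3, the catenin alpha-T, scored 1413 with the summit 10 bp upstream of the 5′ end.

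PLPPR1, related to the phospholipid phosphatases, scored 1326, and the nearest other list was 78503 bp away. DPY19L2, needed for the sperm head, scored 1305 with a YY1 summit 75 bp outside. ZMYND10, needed to assemble ciliary dynein arms, scored 1281, 10 bp upstream of the 5′ end. VDAC2, a channel of the outer mitochondrial membrane, scored 1269, and an SP1 summit lay 8 bp outside its window. Its canonical 5′ end lay 642 bp downstream, with all 4 factors around it.

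In the YY1-only windows of HSPA8, IREB2 and STX4 the summit lay close to the downstream edge. HSPA8, the constitutive chaperone of the HSP70 family, scored 1751 with its summit 472 bp inside the gene. IREB2, the iron regulatory protein 2, scored 1042 at 439 bp. STX4, a syntaxin of the plasma membrane, scored 327 at 478 bp. Their canonical 5′ ends lay 1094, 785 and 669 bp downstream of the outermost ones, and the windows around these held all 4 factors in each case. NIPAL2 scored 306, ENSG00000284956 227 and ZDHHC2, a palmitoyltransferase, 194. SP1 summits lay 60 bp outside the NIPAL2 window and 84 bp outside that of ZDHHC2, but 13513 bp from that of ENSG00000284956.

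PCDHB7, a clustered protocadherin, and TUBGCP5, of the gamma-tubulin complex, were YY1-only windows far from the other lists. Their scores were 183 and 96.1, above the class median of 10.3. Their summits lay 92 bp upstream and 55 bp inside the gene, and the nearest other list, SP1, was 87316 and 58666 bp away. Both had the consensus within 50 bp.

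A single factor in the window did not mean a single factor nearby. The nearest summit of another list lay within 500 bp outside the window in 374 of 898 windows (41.6%) and over 10000 bp away in 266 (29.6%). NRF1-only windows had such a neighbour most often, in 81 of 123 cases (65.9%), followed by 16 of 30 ZNF143-only (53.3%), 125 of 281 YY1-only (44.5%) and 152 of 464 SP1-only windows (32.8%). The median distance was 152 bp for NRF1, 388 bp for ZNF143, 999 bp for YY1 and 2489 bp for SP1. The lists that could supply a neighbour differed by class and in length, so these shares and distances do not rank the factors themselves. The same shares were not computed for all windows. The nearest other list was YY1 for 312 of the 464 SP1-only windows and SP1 for 201 of the 281 YY1-only windows, the pair of longest lists. Where the neighbour was within 500 bp it lay on the downstream side in 284 of 374 windows (75.9%). With no neighbour within 2000 bp it was on that side in 230 of 419 (54.9%).

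**Figure D5:**
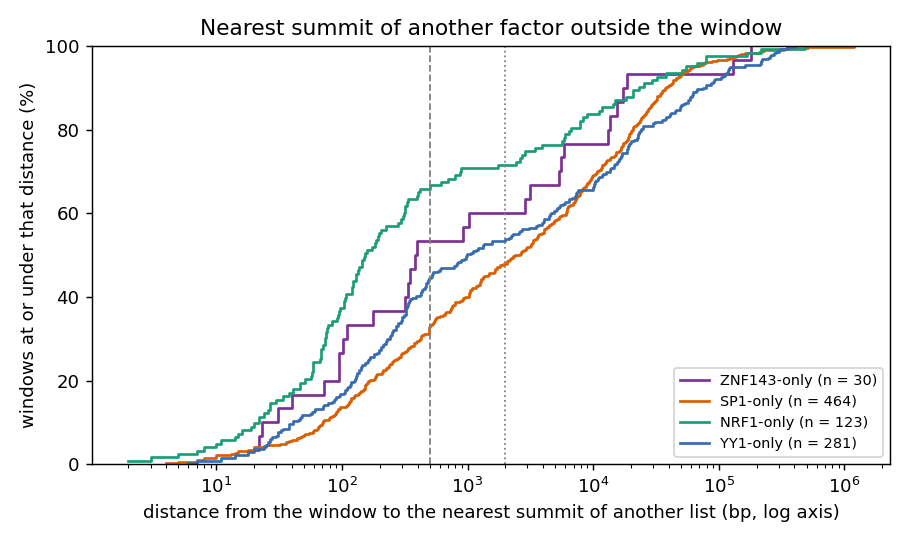
Cumulative share of single-factor windows (y axis, %) by distance from the window to the nearest summit of another list (x axis, bp, log axis), by class. Grey lines mark 500 and 2000 bp. At 500 bp the NRF1-only curve has reached 65.9% and the SP1-only curve 32.8%.

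Windows with and without close neighbours are compared without a test, because distance to the other lists is part of the rule. Over the 4 classes the CpG-rich share was 47.1% with a neighbour within 500 bp and 47.0% with none within 2000 bp. Between these distances the classes differed in direction. Where the nearest neighbour lay beyond 500 bp but within 2000 bp, the share was lower, 30 of 105 windows (28.6%, 20.8 to 37.8). It was 24.3% there for SP1-only and 38.5% for YY1-only windows, with few NRF1-only (3 of 7) and ZNF143-only windows (0 of 2). The CpG-rich share was thus not the same at all distances. With a neighbour within 500 bp, the lone summit was within 100 bp of a 5′ end in 21.7% of windows, and with none within 2000 bp in 43.9%. YY1-only summits were near the 5′ end in 11.2% and 35.4%, and their median offsets were 272 and 57 bp. NRF1-only windows were CpG-rich in 46.9% with a close neighbour and in 28 of 35 (80%) without, YY1-only windows in 49.6% and 58.5%. The shares were 42.8% and 37.2% for SP1-only and 11 of 16 and 3 of 12 for ZNF143-only windows. The NRF1 consensus lay within 50 bp of the summit in 13.6% and 37.1%, and the median scores were 8.28 and 82.2. For ZNF143 the median score was 24.04 in the 16 windows with a close neighbour and 283 in the 12 without. YY1 scores went the other way, with medians of 16.6 and 8.51, and SP1 scores were 10.6 and 15.1.

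The outermost annotated 5′ end was often not the canonical one. In 349 of 898 single-factor windows (38.9%) the 5′ end of the canonical transcript of every gene lay outside the window, against 27.8% of windows without a factor and 19.2% of all windows. The share was 48.8% for NRF1-only (60 of 123), 42.7% for YY1-only (120 of 281), 34.7% for SP1-only (161 of 464) and 26.7% for ZNF143-only windows (8 of 30). Of the 349, 270 (77.4%) had 2 to 4 factors in a window around a canonical 5′ end: 64 had 2, 99 had 3 and 107 had all 4. Among all windows at outermost 5′ ends, 9.43% held 2 factors, 19.8% held 3 and 26.2% all 4. The difference from these general shares was not tested. With windows drawn around canonical 5′ ends, 70 had NRF1 alone in place of 123.

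The edge of a window decided membership by single bases in places. Outside the ZNF143-only class, the lone summit nearest to an edge was 0 bp from it at COX6B2 (SP1, score 30.99), 3 bp at CCDC9 (YY1, 114) and 4 bp at OSBP2 (NRF1, 5.10). Just outside, a YY1 summit with a score of 163 lay 2 bp from the SPATA18 window, whose own NRF1 summit scored 199. A YY1 summit of 7.26 lay 4 bp from the NAT8L window (SP1, 43.1), and an SP1 summit of 23.2 lay 6 bp from the IGFBP2 window (YY1, 7.26).

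Of the gene families listed, clustered protocadherins and ion channels had the highest shares of single-factor windows. Of the 53 windows of clustered protocadherins, neuronal adhesion proteins, 8 had a single factor (15.1%, against 4.94% of all windows), 41 had none and 0 had all 4. YY1 was the lone factor in 7 of them: PCDHB7 (183), PCDHGA7 (92.5), PCDHGA3 (19.6), PCDHGA6 (8.51), PCDHB8 (4.61), PCDHA2 (2.41) and PCDHGA10 (2.15). NRF1 was that of PCDHGB5 (201). The summits of these 8 windows lay between 92 bp upstream and 59 bp inside the gene, and the nearest other list was 4081 to 92462 bp away. Related protocadherins share sequence, and the summit sequences of PCDHB8 and PCDHGB5 occurred 2 times each.

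Of 136 windows of potassium, sodium and calcium channel genes 18 had a single factor (13.2%), 8 SP1, 8 YY1 and 2 NRF1. Among them were the sodium channels SCN8A (YY1, 40.5), SCN3A (YY1, 19.3) and SCN3B (YY1, 16.2), and the inward rectifiers KCNJ8 (SP1, 29.3), KCNJ5 (SP1, 19.6), KCNJ13 (SP1, 7.81) and KCNJ16 (SP1, 4.76). SP1 was near SCN8A and SCN3B, 30 and 14 bp outside their windows.

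The other families described here were near or under the share of all windows. Zinc finger genes had a single factor in 20 of 544 windows (3.68%), with ZNF143 in 2, SP1 in 8, NRF1 in 3 and YY1 in 7. Solute carriers had 14 of 373 (3.75%), 9 of them with SP1. Ribosomal protein genes had 3 of 92 (3.26%), RPL10L and RPL30 with NRF1 and RPS27L with YY1, and mitochondrial ribosomal protein genes 0 of 77, as 58 of these held all 4 factors. HOX genes had 2 of 38 (HOXC11 and HOXC12, both SP1), which at 5.26% was close to the share of all windows. Olfactory receptors had 0 of 412, with 411 without any factor, and the meiotic and germline genes 0 of 30. The families were not tested.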

How the data were processed

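The deposited files used were 4 summit lists, 1 per antibody, in hg38. The SP1 and ZNF143 lists are named in the labels of both treated and untreated samples; the NRF1 and YY1 lists were assigned by the antibody in the list's name. Judged by its values and layout, column 5 of the deposited lists is a −log10 significance from a peak caller, and whether of p or of q is not given in the sources used here. The submitters' processing notes name cutadapt, Bowtie2, SAMtools 1.16.1, MACS3 and bedtools, with no role or order. The lists give no depth and no replicate.

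Windows, classes, consensus matches and distances were computed with Python 3.11.15, pysam 0.24.0 and scipy 1.17.1 from hg38 and GENCODE 44, and the tests were tested on simulated data. Where a window held several summits the highest-scoring one was used. Regions where the NRF1 or YY1 peak numbers skip at least 10 were marked. The ZNF143 consensus is given by name only.

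Named genes were the 8 highest-scoring windows of each class (10 for ZNF143), the 3 highest with the consensus within 50 bp of the summit, the windows nearest the edge limits, and members of the listed families. The rule, the tests, the members and the families were chosen with earlier results of these data known. No sequence of chromosome 8 is printed. Some named windows and sequences that the rule chose are not reported here. Signal tracks and the mock samples were not analysed here.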

Additional observations from a re-analysis of the deposited data

How the results depend on the processing

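No paired analysis was possible because the lists hold no value per sample. Of 206 recomputed tests, 166 kept direction and side of the threshold, 30 turned direction, 7 lost their call and 3 gained one. Of 50 recomputed counts of windows, 15 moved by over 1.5 times. The cause of the changes below was not tested; values are odds ratios unless called windows.

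With equal list lengths there were 1880 single-factor windows (ZNF143 258, SP1 247, NRF1 1057, YY1 318). The CpG values were 0.522 for ZNF143 and 0.698 for YY1, the positions 1.158 for SP1 and 1.29 for NRF1, and the divergent start 1.07 for SP1. With 250 bp either side there were 1403 windows (ZNF143 53, NRF1 272). CpG was 0.976 for ZNF143, position 1.27 for SP1 and 0.742 for YY1, divergent start 1.22 for SP1 and 0.953 for YY1. With 1000 bp there were 19 ZNF143-only and 65 NRF1-only windows, CpG was 0.0606 for ZNF143, position 1.24 for NRF1 and divergent start 1.09 for SP1.

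With no other list within 2000 bp, 419 windows remained (12 ZNF143, 242 SP1, 35 NRF1, 130 YY1). CpG was 0.366 for ZNF143, position 1.1599 for SP1, 1.58 for NRF1 and 0.599 for YY1, and divergent start 1.26, 1.41 and 0.765. At canonical 5′ ends 70 windows were NRF1-only, CpG was 0.707 for ZNF143, position 4.25 for ZNF143 (adjusted exact p = 0.00191) and 1.55 for NRF1, and divergent start 1.49 for SP1 and 0.841 for YY1.

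With scores of at least 5, CpG was 0.813 and position 2.76 for ZNF143, position 1.05 for NRF1 and divergent start 1.02 for SP1. Keeping the higher-scoring 50% of every list, CpG was 0.866 and position 2.22 for ZNF143, and position 1.09 for NRF1. With a CpG limit of 0.75 the ZNF143 value was 0.0446. Within 50 bp of the 5′ end, position was 0.906 for ZNF143, 1.29 for SP1 and 1.41 for NRF1. In windows of 1 gene, divergent start was 1.03 for SP1. With 1 mismatch the SP1 consensus was 0.961. Leaving out repeated summit sequences, chosen after seeing the data, gave 0.612 for ZNF143 CpG and 1.35 for the SP1 consensus.

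The SP1 and NRF1 CpG results and the ZNF143, NRF1 and YY1 consensus results kept their call under every alternative run. The depth of the lists is unknown, so a factor without a summit was not shown to be absent.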
